A study of Mus musculus with 24 samples.

Results

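The comparison set white adipose tissue of hPER1 S714G mutant mice taken at ZT1 against white adipose tissue of hPER1 S714 control mice taken at ZT13. ZT counts the hours since lights on, so genotype and time of day differ together and their parts in a difference cannot be told apart within this pair of groups. Its 6 arrays, 3 per group, were chosen by the genotype, tissue and time in the labels, out of 24 arrays in the series. All genes that passed a filter on signal were described, 23387 in number.

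The series covered liver and white adipose tissue, both genotypes and both times, with 3 arrays in each of 8 groups. All mice were male, on a C57BL/6 background and aged 2 months, and all had been kept in light-dark cycles for 10 days. Control mice also carried human PER1, in the S714 form with its serine kept, so the groups compared share a human PER1 and differ in S714G. The promoter, copy number and line of the human gene, the fat depot and any pooling of animals are not given in the sources used here. Total RNA was hybridised to Cy3 Agilent mouse arrays. The design text calls the arrays of a group independent repeats without naming animals, so p-values measure the spread between these samples, which may be technical.

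In the circadian clock of mammals the activators BMAL1 (Arntl) and CLOCK or NPAS2 bind E-box elements and drive transcription of the Per and Cry genes, whose proteins return to repress the activators. A further loop runs through the nuclear receptors REV-ERB (Nr1d1, Nr1d2), which repress Arntl, and ROR, which activate it. In fat the loop times lipid storage and release, and phosphorylation of the PER proteins by casein kinases sets their stability.

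Levels are log2 signals relative to the 75th percentile of each array, differences are mutant ZT1 minus control ZT13 on the log2 scale, and SE is the standard error from limma fitted to all 12 adipose arrays. Slides did not spread evenly over the groups. Mutant ZT1 replicates 1 and 2 lay on slide 1, and mutant ZT1 replicate 3 lay on slide 2 with all 3 control ZT13 arrays. The raw 75th percentile was 733 and 1121 for the mutant arrays of slide 1, 1968 for mutant replicate 3 and 1761 to 2015 for the controls. Correlations were taken over the probes that passed the signal filter and had a value on every adipose array. The 6 pairs of arrays that shared slide 2 correlated at 0.975 to 0.983. The pair on slide 1 correlated at 0.949 and the 8 pairs across slides at 0.909 to 0.939. Mutant replicate 3 was therefore nearer to the control arrays of its own slide than to the arrays of its own group. It also correlated at 0.974 to 0.979 with the mutant ZT13 arrays, which lay on slide 3. The part of slide in these correlations was not tested. Values within slide 2, given for part of the genes, set 1 mutant array against 3 controls. Their spread and adjusted p come from a fit of all 12 adipose arrays with slide as a block, not from slide 2 alone.

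The tissue label was checked against adipocyte markers. All 12 were measured, and none passed the test in this comparison. Their mean level lay between 5.07 and 5.46 on the 3 mutant arrays and between 5.05 and 5.24 on the 3 control arrays, so the groups overlapped. Adipoq, which encodes the hormone adiponectin, stood at 7.51, 7.22 and 6.80 on the mutant arrays and at 6.90, 7.28 and 7.07 on the controls. Liver transcripts were also present. The mean level of 12 hepatocyte markers was 3.29, -2.20 and 2.29 on mutant replicates 1, 2 and 3, against 3.57, 1.54 and 3.44 on the controls. Alb, which encodes albumin, was lowest on mutant replicate 2 at -1.66 and lay between 3.72 and 5.24 on the other 5 arrays. No hepatocyte marker passed the test, their median difference was -1.79, and their part in the results below was not tested.

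Of 23387 genes tested, 196 (0.838%) passed an adjusted p of 0.05, with 125 (0.534%) higher and 71 (0.304%) lower in mutant ZT1 tissue. The sizes of their differences ran from 0.92 to 5.35, with a median of 1.69. The median difference of all genes tested was 0.20. The share of called genes that were higher was 63.8%, which became 43.0% after quantile normalization and 29.0% after scaling to array medians, where the median over all genes moved to -0.20. All 196 called genes had no overlap between groups, which fixes the sign of their difference within slide 2. Within slide 2 alone 21 genes (0.0898%) passed, 9 of them among the 196. Leaving out 1 control array gave 11 calls (replicate 1), 96 (replicate 2) or 59 (replicate 3). Leaving out 1 mutant array gave 54 (replicate 1), 74 (replicate 2) or 10392 (replicate 3, the mutant array of slide 2).

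**Figure D1:**
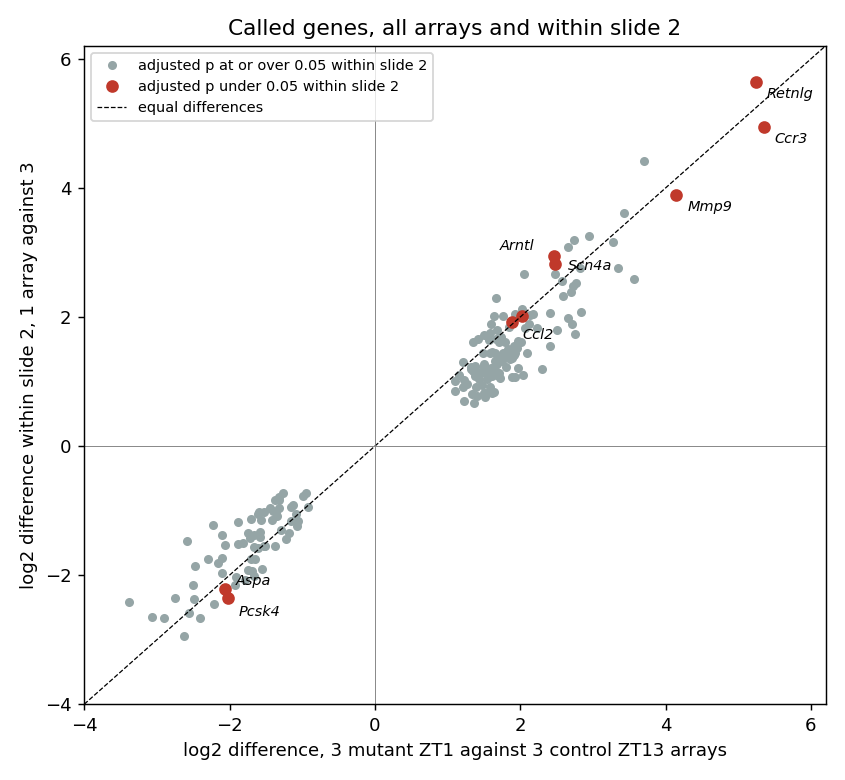
Each point is 1 of the 196 called genes, with the log2 difference over 3 mutant ZT1 and 3 control ZT13 arrays on the x axis and the difference within slide 2, 1 array against 3, on the y axis. The called genes have no overlap between groups, so the sign on the y axis is fixed, and the red points are the genes also called within slide 2, of which 8 carry a gene symbol.

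The core clock genes moved unevenly between these groups. Of 23 members measured, 1 was higher and 5 were lower past the threshold, beside 0.838% of all genes called in either direction. The median difference of the list was -0.44, beside 0.20 for all genes, and -0.43 within slide 2. Arntl rose, and Per1, Per2, Ciart and Usp2 were among those that fell.

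Among the activators, Arntl (probe at chr7:120457261-120457320, mm9) measured -1.84, -2.37 and -1.38 on the mutant arrays and -3.72, -4.37 and -4.90 on the controls. Every mutant array lay above every control array, of which 2 of 3 were well above background. The difference was 2.47 (SE 0.32, adjusted p = 0.0122), a fold of 5.53, and within slide 2 it was 2.95 (adjusted p = 0.034). Arntl stayed past the threshold when each of the 6 arrays was left out in turn. For Npas2, the alternative partner of BMAL1, the groups overlapped, with -3.82, -4.01 and -5.19 in the mutant and -5.90, -4.56 and -7.24 in the control, and the difference was 1.56 (SE 0.56, adjusted p = 0.126). Clock had a difference of 0.35 (SE 0.23, adjusted p = 0.315), and its 95% interval ran from -0.16 to 0.86.

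The period genes encode the repressors PER1, PER2 and PER3. Per2 measured -1.18, -0.73 and -0.13 on the mutant arrays and 1.60, 1.73 and 1.52 on the controls, with the mutant array of slide 2 nearest to the controls. The groups did not overlap, and Per2 fell by 2.30 (SE 0.32, adjusted p = 0.014), with a difference of -1.75 within slide 2 (adjusted p = 0.192). Without control replicate 1 the adjusted p of Per2 was 0.0806.

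Per1 measured 1.84, 0.87 and 1.32 in the mutant and 2.97, 2.83 and 2.81 in the control. Every mutant array lay below every control array, and the difference was -1.52 (SE 0.28, adjusted p = 0.0373). This brighter Per1 probe lies at chr11:68923364-68923423 in mm9. A dimmer Per1 probe at chr11:68919895-68919954 gave 1.52 in the other direction (SE 0.54, adjusted p = 0.129 in a fit of all probes), so the pair of probes disagreed in sign. Whether either mouse probe also detects human PER1 RNA is not given in the sources used here. Per1 lost its call without mutant replicate 2 (adjusted p = 0.107) and without control replicate 1, 2 or 3 (0.152, 0.0861 and 0.109), and had an adjusted p of 0.307 within slide 2.

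Per3 lay just outside the threshold. Its levels were -4.54, -4.74 and -3.03 against -2.14, -1.21 and -1.54, without overlap, and its difference was -2.47 (SE 0.51, adjusted p = 0.0506).

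The cryptochromes are the partners of the PER proteins. Cry1 was not well above background on any mutant array and was measured on all 3 control arrays, at -3.78, -4.22 and -4.10. It was at least 1.68-fold lower in the mutant, with a fitted difference of -2.10 (SE 0.49, adjusted p = 0.0692). This fold bound sets the bright group's mean against, for each dim array, the higher of the probe's own signal and the lowest signal well above background. On the mutant array of slide 2 that lowest signal was -3.99, above the control mean of -4.03. The bound thus rests on the mutant arrays of slide 1. The mutant array of slide 2 read -4.70 and the others -6.66 and -7.04, so that the difference within slide 2 was -0.67. Cry2 measured 2.10, 1.95 and 1.32 in the mutant and 1.52, 1.13 and 1.26 in the control, and its interval ran from -0.08 to 1.05.

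Ciart, which encodes the repressor CHRONO, was not well above background on any mutant array, where it read -5.18, -4.79 and -4.81. The controls read -2.74, -2.78 and -1.78, all well above background. Ciart was at least 4.55-fold lower in mutant ZT1 tissue, and the fitted difference was -2.49 (SE 0.43, adjusted p = 0.0276). Within slide 2 the difference was -2.38 (adjusted p = 0.328), and the adjusted p lay between 0.0514 and 0.0987 when any array other than mutant replicate 3 was left out. Usp2, a deubiquitinase under clock control, measured 0.82, 0.07 and 0.11 in the mutant and 2.45, 1.90 and 2.41 in the control. It fell by 1.92 (SE 0.29, adjusted p = 0.0158), and by 2.14 within slide 2 (adjusted p = 0.107), and missed the threshold without mutant replicate 2 or control replicate 1 or 3. The transcriptional repressors DEC1 (Bhlhe40) and DEC2 (Bhlhe41) had differences of -1.57 (SE 0.62, adjusted p = 0.142) and 0.60 (SE 0.33, adjusted p = 0.240), and their groups overlapped.

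The promoters of 3 of these repressor genes and of Acot4, among the largest falls described below, are shown because they hold the E-box or D-box letters that clock factors are known to bind. Sequences are from RefSeq (GRCm38.p6) and give the 250 bases before the annotated start, 5' to 3' along the gene, with matches in capitals. Of 41 genes looked up, the 23 core clock genes and 18 further genes of largest difference, 35 had an entry. Ciart lies at chr3:95882229-95882478 (minus strand), Per1 at chr11:69098699-69098948 (plus strand), Per3 at chr4:151044666-151044915 (minus strand) and Acot4 at chr12:84038129-84038378 (plus strand).
Ciart: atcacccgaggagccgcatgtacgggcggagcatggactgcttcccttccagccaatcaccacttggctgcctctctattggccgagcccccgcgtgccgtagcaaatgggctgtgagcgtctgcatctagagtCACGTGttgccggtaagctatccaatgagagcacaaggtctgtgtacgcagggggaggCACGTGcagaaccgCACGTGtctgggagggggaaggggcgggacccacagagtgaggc
Per1: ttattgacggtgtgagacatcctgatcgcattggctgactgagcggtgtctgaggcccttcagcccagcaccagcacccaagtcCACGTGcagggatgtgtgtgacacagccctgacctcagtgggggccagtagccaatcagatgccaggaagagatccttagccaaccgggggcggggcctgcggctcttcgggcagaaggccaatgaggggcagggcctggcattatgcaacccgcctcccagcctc
Per3: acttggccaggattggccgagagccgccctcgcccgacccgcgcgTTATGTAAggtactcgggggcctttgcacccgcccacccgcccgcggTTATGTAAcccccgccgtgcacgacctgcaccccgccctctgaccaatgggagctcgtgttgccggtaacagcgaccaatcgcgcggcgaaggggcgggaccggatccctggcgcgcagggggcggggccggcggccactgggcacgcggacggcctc
Acot4: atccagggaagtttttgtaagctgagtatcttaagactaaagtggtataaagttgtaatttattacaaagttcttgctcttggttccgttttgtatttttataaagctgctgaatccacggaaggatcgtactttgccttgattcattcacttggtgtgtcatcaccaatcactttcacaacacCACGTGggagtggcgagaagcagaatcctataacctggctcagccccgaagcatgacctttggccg

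The E-box searched was CACGTG, which reads the same on both strands. It occurred 3 times before Ciart, starting 116, 58 and 44 bases before the annotated start. Per1 held it once, at 166 bases, and Acot4 once, at 66 bases. Per1 has a further annotated start whose 250 bases held none. Among the matched genes, 5 of 19 core clock genes (26.3%) and 2 of 16 other genes (12.5%) held it in at least 1 entry, beside 6.02% of 32851 promoter entries. The 5 were Bhlhe41, Ciart, Cry1, Per1 and Tef, of which Ciart and Per1 passed the test. The 2 were Acot4, which fell, and Cfap57, which rose and held it at 108 bases. The D-box searched was TTANGTAA on either strand. Per3 held it at 205 and 158 bases before the start, and it occurred in 2.06% of all entries. The ROR element, searched by its consensus on either strand, occurred in 0.332% of all entries and in none of these 35 genes. A match is a description of letters and was not tested for binding.

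Among the nuclear receptors, Rora, which encodes an activator of Arntl, had a difference of -1.13 (SE 0.29, adjusted p = 0.083), with the mutant array of slide 2 at 2.29 and the others at 1.59 and 1.23, all below the control range of 2.67 to 3.01. Rorb overlapped between groups, with a difference of 0.44 (SE 0.44, adjusted p = 0.496).

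Nr1d1, which encodes REV-ERBalpha, measured 1.18, 0.03 and 0.44 in the mutant and -1.09, -0.66 and -0.53 in the control. All mutant arrays were higher, and the difference of 1.31 (SE 0.30, adjusted p = 0.0658) did not pass the threshold. Its paralog Nr1d2 had probes that differed. The brighter one, placed by the array design at chr19:40271435-40271494 in mm9, gave 0.01 (SE 0.29, interval -0.63 to 0.65). The dimmer one, at chr14:19037253-19037312, gave -1.97 (SE 0.55, adjusted p = 0.099 in a fit of all probes). RefSeq places Nr1d2 on chromosome 14, so no direction is given for this gene.

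Dbp, Tef and Hlf encode activators that bind D-box elements, and Nfil3 encodes a repressor at the same elements. None passed the test. Dbp measured 6.02, 6.03 and 4.96 in the mutant and 5.38, 5.39 and 5.47 in the control, so the mutant arrays lay on both sides of the controls. The difference was 0.25 (SE 0.34, adjusted p = 0.617, interval -0.49 to 0.99), it was -0.46 within slide 2, and it turned to -0.11 after quantile normalization and -0.15 after scaling to array medians. Tef had a difference of -0.44 (SE 0.25, adjusted p = 0.241) and Hlf one of -1.05 (SE 0.35, adjusted p = 0.116), both without overlap. Nfil3 overlapped, with -1.01 (SE 0.42, adjusted p = 0.153). The kinases that phosphorylate PER proteins, Csnk1d and Csnk1e, had differences of -0.27 (SE 0.22) and 0.24 (SE 0.23), the second of which turned to -0.16 after scaling to array medians.

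**Figure D2:**
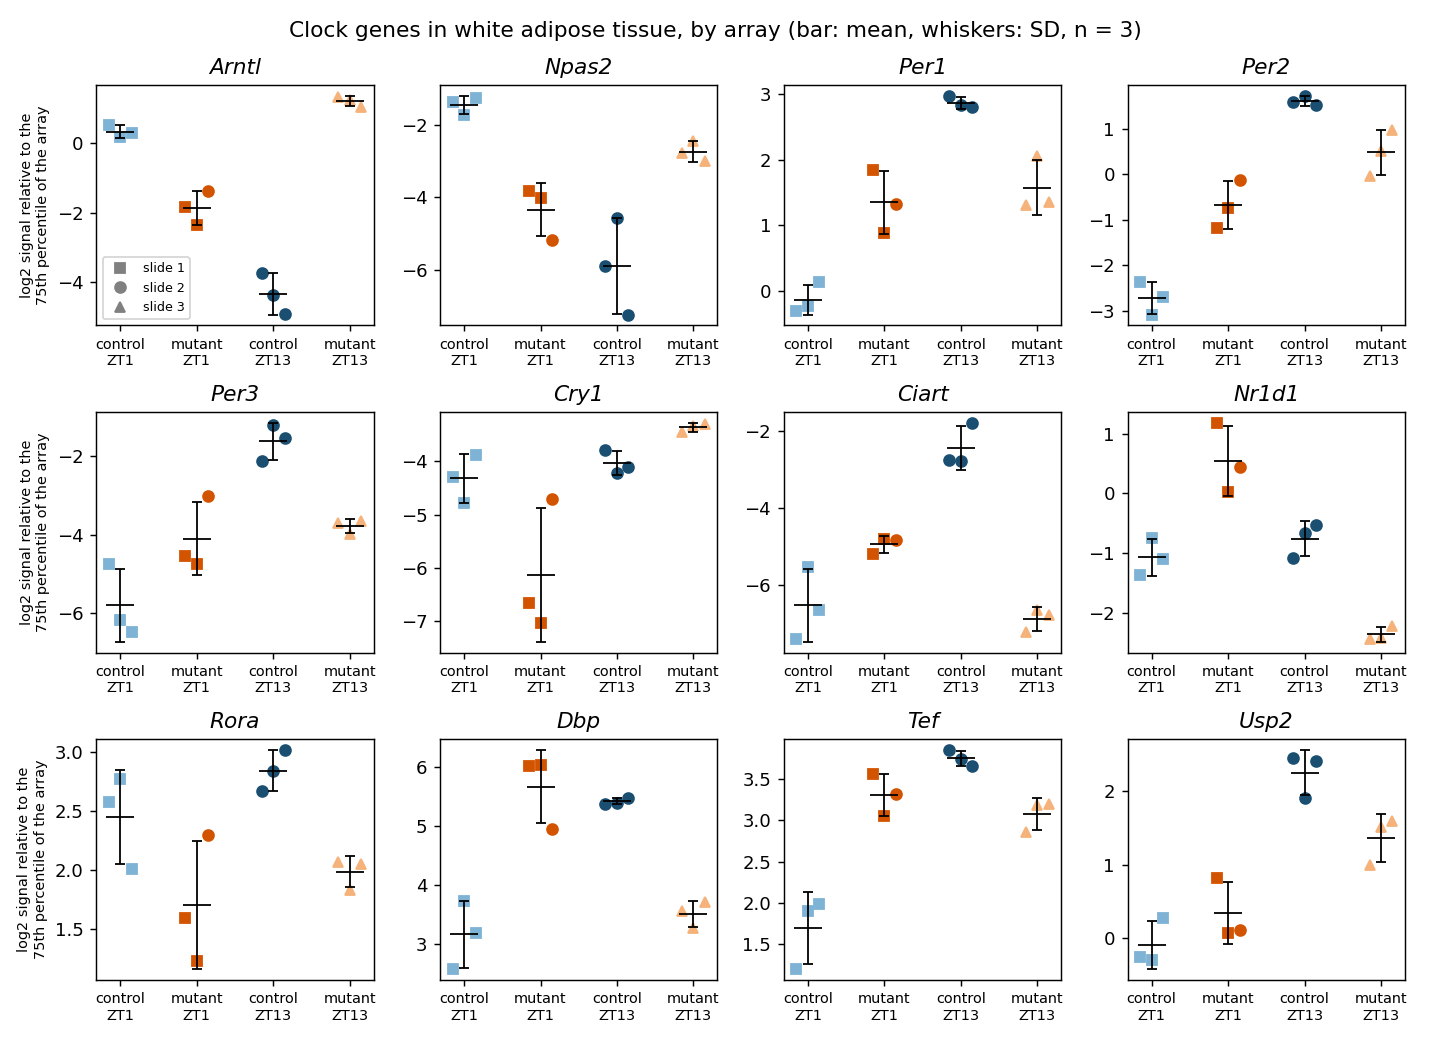
Log2 level relative to the array's 75th percentile (y axis) of 12 clock genes on each of the 12 adipose arrays, by group, with the mean and SD of 3 arrays and the slide as marker shape. Arntl lies between -2.37 and -1.38 in mutant ZT1 and between -4.90 and -3.72 in control ZT13, while Dbp of mutant ZT1 lies on both sides of control ZT13.

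The remaining adipose groups give the range over which these genes varied. Arntl averaged 0.32 ± 0.18 (SD, n = 3) in control ZT1 and 1.19 ± 0.15 in mutant ZT13, both above mutant ZT1 at -1.86 ± 0.49 and control ZT13 at -4.33 ± 0.59. Dbp averaged 3.17 ± 0.57 in control ZT1 and 3.52 ± 0.22 in mutant ZT13, both below the 2 groups of this comparison at 5.67 ± 0.62 and 5.42 ± 0.05. Per2 was lowest in control ZT1 at -2.72 ± 0.35, followed by mutant ZT1 at -0.68 ± 0.53, mutant ZT13 at 0.49 ± 0.50 and control ZT13 at 1.61 ± 0.11. Each neighbouring pair of groups in this order was apart by more than the sum of its SDs.

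The 2 groups share neither genotype nor time, and the same fit tested each factor on its own. Between genotypes at ZT1, limma called 0 of 23387 genes (0%), with 1827 at an unadjusted p under 0.05. Between genotypes at ZT13 it called 10 (0.0428%). Between times it called 3504 genes in control tissue (15%) and 443 in mutant tissue (1.89%). For Arntl the difference between genotypes was -2.19 at ZT1 (SE 0.32, adjusted p = 0.0851) and 5.53 at ZT13 (SE 0.32, adjusted p = 3.49e-05). The difference between times, ZT1 minus ZT13, was 4.65 for Arntl in control tissue and -3.06 in mutant tissue, and the corresponding values for Dbp were -2.25 and 2.15. These contrasts share arrays with the comparison described here, and slide 1 held all control ZT1 arrays and slide 3 all mutant ZT13 arrays.

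The 3 largest rises among called genes with a symbol were Ccr3, Retnlg and Mmp9. Ccr3, the eotaxin receptor of eosinophils, measured -1.90, -1.13 and -2.12 on the mutant arrays and was not well above background on any control array, at -7.14, -6.91 and -7.17. It was at least 13.2-fold higher in the mutant, with a fitted difference of 5.35 (SE 0.43, adjusted p = 0.000643). Retnlg, a resistin-like gene expressed in neutrophils, measured 0.82, -0.02 and 0.99 against -4.27, -4.62 and -5.06. It rose by 5.25 (SE 0.32, adjusted p = 6.52e-05), although 1 of the 3 control arrays was not well above background. Mmp9, a gelatinase stored in neutrophil granules, measured -0.51, -1.25 and -1.26 against -4.92, -5.09 and -5.45 and rose by 4.15 (SE 0.38, adjusted p = 0.00138), also with 1 of 3 control arrays not well above background. For all 3 genes the groups lay far apart, the difference within slide 2 passed the threshold at 4.95, 5.64 and 3.90, and leaving out any array kept the call.

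These rises were also present between times within a genotype. Mean levels of Ccr3 were -2.72 ± 0.82 in control ZT1 and -6.43 ± 0.64 in mutant ZT13. Those of Mmp9 were -1.16 ± 0.34 and -4.12 ± 0.81. Mutant minus control at ZT1 was 1.01 for Ccr3 (adjusted p = 0.609), 0.60 for Retnlg (adjusted p = 0.728) and 0.15 for Mmp9 (adjusted p = 0.988).

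Marker lists of these cells were not called as a whole. Of 8 neutrophil markers measured, 1 passed (Retnlg), beside 0.534% of all genes called higher. Groups did not overlap in the higher direction for 3, beside 14.6% of all genes. The median difference of the list was 0.60. S100a9, a calcium-binding protein abundant in neutrophils, had a difference of 1.27 (SE 0.31, adjusted p = 0.0753), while the values of Camp and S100a8 were negative. The defining neutrophil markers Ltf, Mmp8, Mpo and Ngp did not pass the signal filter. A list of eosinophil markers was written after values had been seen. Of its 7 measured members 2 passed, beside 0.534% of all genes called higher. They were Ccr3 and Siglecf, a lectin receptor of eosinophils, which measured -1.78, -1.95 and -1.21 against -4.48, -3.88 and -4.54 and rose by 2.65 (SE 0.37, adjusted p = 0.014). Siglecf missed the threshold without control replicate 1 or 3. The eosinophil granule genes Epx and Prg2 did not pass the filter. In bulk tissue, fewer cells of a type and less RNA per cell cannot be told apart.

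Most macrophage markers had higher values in mutant ZT1 tissue. Of 15 measured, 14 had a positive difference (93.3%, beside 61.6% of all genes), 11 had no overlap in the higher direction (beside 14.6% of all genes) and 2 passed the test (beside 0.534% called higher). Their median difference was 1.13, beside 0.20 for all genes, and 0.69 within slide 2. There 14 were positive (beside 50.6% of all genes). The lack of overlap fixes that sign for 11 of them, so nothing is read from this count. C1qb and C1qa, which encode chains of complement C1q, measured 5.72, 5.46 and 4.83 against 3.20, 3.79 and 3.26, and 4.96, 5.09 and 4.23 against 2.89, 3.45 and 3.11. Both were higher on every mutant array, and the mutant array of slide 2 was the lowest of its group for each. C1qb rose by 1.92 (SE 0.27, adjusted p = 0.014) and C1qa by 1.61 (SE 0.27, adjusted p = 0.026). Without control replicate 1 neither passed the threshold, and C1qa also missed it without mutant replicate 1 or 2 or control replicate 3. Cd68, a lysosomal glycoprotein, had a difference of 1.32 (SE 0.31, adjusted p = 0.0702) and Csf1r, the CSF1 receptor, one of 1.13 (SE 0.28, adjusted p = 0.0743). Adgre1, the F4/80 antigen, was chosen after its values were seen and had one of 1.19 (adjusted p = 0.0814). A dimmer Cd68 probe gave -0.06 (SE 0.59), and dimmer Csf1r probes gave 1.23 and 0.51. The mean level of the 15 markers was 3.53, 3.06 and 2.82 on the mutant arrays and 1.94, 2.43 and 1.88 on the controls.

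**Figure D3:**
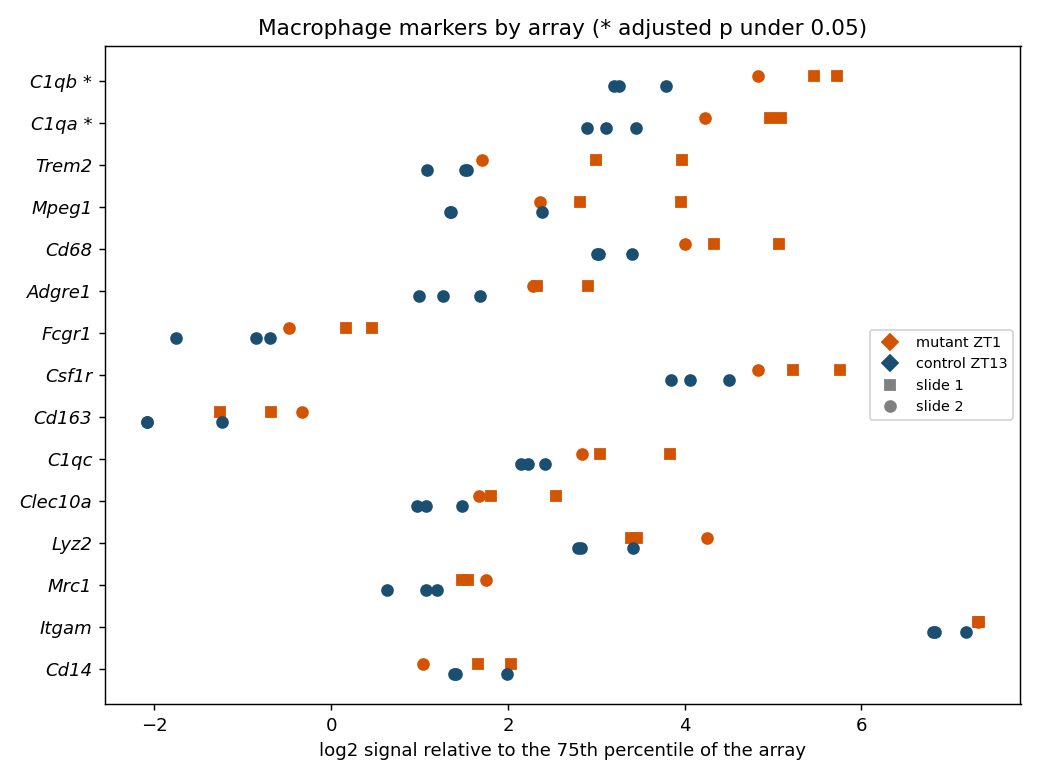
Log2 level relative to the array's 75th percentile (x axis) of the 15 measured macrophage markers, with 3 mutant ZT1 and 3 control ZT13 arrays each and the slide as marker shape. C1qb and C1qa, starred, are the 2 that passed the test, and for 11 of 15 every mutant array lies above every control array.

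Further called genes of leukocytes fell outside the naming rule and were chosen after their values were seen. Cx3cr1, the fractalkine receptor of monocytes, rose by 2.59 (SE 0.38, adjusted p = 0.0158), and Timd4, a phosphatidylserine receptor of resident macrophages, by 2.41 (SE 0.34, adjusted p = 0.014). Padi4, the peptidylarginine deiminase of granulocytes, rose by 2.06, Gpr183, an oxysterol receptor of lymphocytes, by 2.13, and Ccl24, an eotaxin, by 2.09. Folr2 and Lyve1, both found on resident macrophages, rose by 1.70 and 1.72, and Ptprc, which encodes the pan-leukocyte antigen CD45, by 1.34. At ZT1, mutant minus control values of the 8 genes ran from -0.61 (Cx3cr1) to 0.80 (Padi4), and none passed the threshold. Without control replicate 1 none of the 8 genes passed. Ccl24 and Lyve1 kept their call only without mutant replicate 3. Gpr183, Folr2 and Ptprc kept it in 2 of the 6 settings that left out 1 array, Cx3cr1 and Timd4 in 4 and Padi4 in 5.

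The inflammation list had 17 members measured, of which 2 passed, both higher, beside 0.534% of all genes. Ccl2, the monocyte chemoattractant, measured 1.01, 0.80 and 0.96 against -1.10, -0.75 and -1.02. Its values were tight in both groups, and it rose by 1.88 (SE 0.20, adjusted p = 0.00281), with 1.92 within slide 2 (adjusted p = 0.031). Il1b, the cytokine interleukin 1 beta, measured -1.74, -3.02 and -3.52 against -5.03, -5.28 and -6.47, with 1 control array well above background, and rose by 2.84 (SE 0.51, adjusted p = 0.0317). Its call was lost without each array other than mutant replicate 3. Il1rn, the receptor antagonist of the same pathway, rose by 1.68 (SE 0.29, adjusted p = 0.0272) and was chosen after its values were seen. Tnf had a difference of 1.68 (SE 0.42, adjusted p = 0.0807) and Lcn2, a siderophore-binding protein, one of 1.43 (SE 0.36, adjusted p = 0.0791). The median of the list was 0.62.

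Among 10 B cell markers 1 passed, beside 0.534% of all genes called higher. It was Bank1, a scaffold protein of B cell receptor signalling, which rose by 1.38 (SE 0.21, adjusted p = 0.0158) and missed the threshold without control replicate 1 or 3. The median difference of the list was 1.04 and 3 members had no overlap in the higher direction, beside 14.6% of all genes. None of 9 T cell markers passed, and none was without overlap, at a median of 0.73. Within slide 2 the medians were 0.49 and 0.27.

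The other large rises lay outside the leukocyte lists. Inpp5j, an inositol polyphosphate 5-phosphatase, measured 0.37, -0.74 and -1.64 against -4.83, -4.0 and -3.87 and rose by 3.56 (SE 0.45, adjusted p = 0.0112). Chga, which encodes the secretory granule protein chromogranin A, measured -0.14, -0.65 and -1.28 against -3.43, -4.70 and -3.99 and rose by 3.35 (SE 0.56, adjusted p = 0.0241). In both genes the mutant array of slide 2 was the lowest of its group and still above every control. Adcyap1, which encodes the neuropeptide PACAP, rose by 2.76 (SE 0.53, adjusted p = 0.043), and the gene of its receptor, Adcyap1r1, fell by 2.10 (SE 0.34, adjusted p = 0.0224). Cfap57, a cilia protein gene, and the odorant receptor genes Olfr1197 and Olfr131 were not well above background on any control array and were at least 4.61-fold, 5.40-fold and 3.19-fold higher. Scn4a, a voltage-gated sodium channel gene chosen because it passed within slide 2 too, was at least 3.43-fold higher, with a fitted difference of 2.48 (SE 0.21, adjusted p = 0.00087). Of the 8 genes in this paragraph, Scn4a kept its call without each array in turn, Inpp5j and Olfr1197 lost it only without control replicate 1, Olfr131 lost it without mutant replicate 1 or control replicate 1 or 2, and Chga, Adcyap1, Adcyap1r1 and Cfap57 kept it only without mutant replicate 3.

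**Figure D4:**
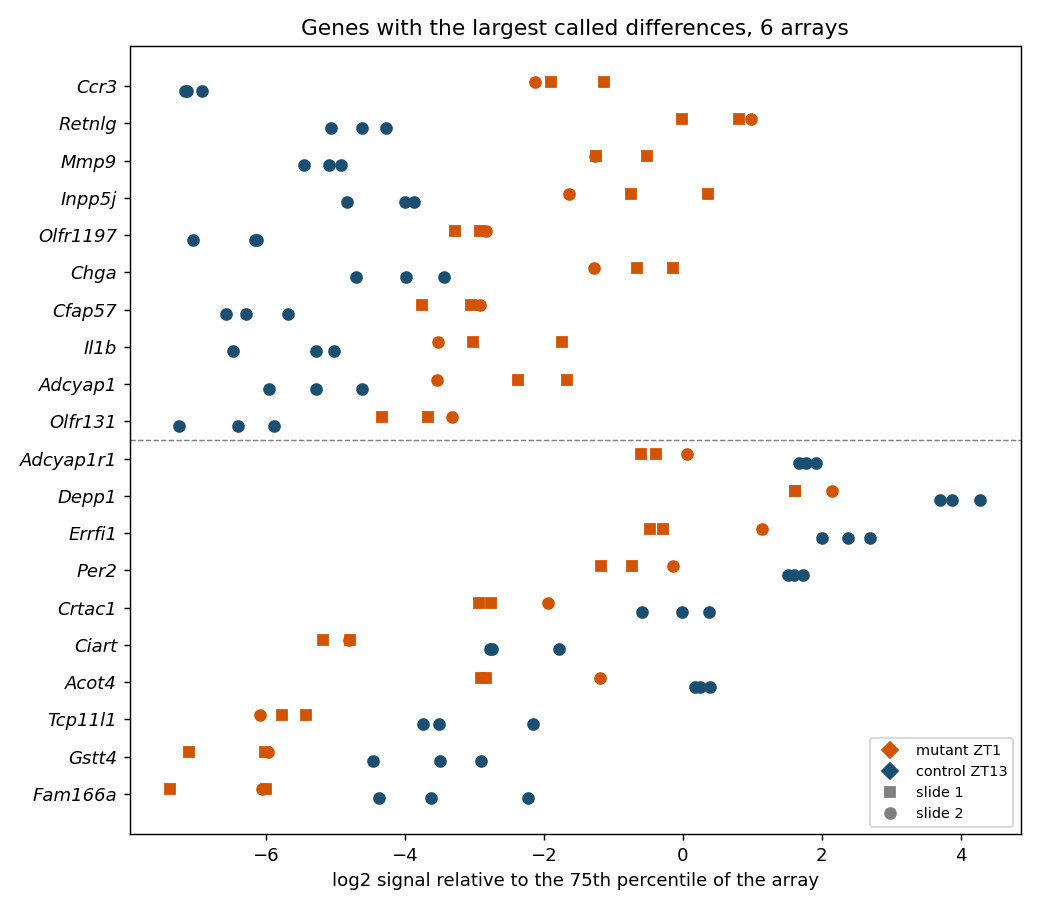
Log2 level relative to the array's 75th percentile (x axis) of the 10 largest rises (above the dashed line) and the 10 largest falls (below it) on 3 mutant ZT1 and 3 control ZT13 arrays, with the slide as marker shape. No gene overlaps between groups, and Ccr3 and Retnlg show the widest gaps, with differences of 5.35 and 5.25.

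Among the largest falls besides Ciart and Per2, Acot4, a peroxisomal acyl-CoA thioesterase, measured -2.90, -2.83 and -1.20 against 0.40, 0.24 and 0.17. The mutant array of slide 2 lay closest to the controls, and Acot4 fell by 2.58 (SE 0.38, adjusted p = 0.0158), by 1.47 within slide 2 (adjusted p = 0.0736). Depp1, a target of FOXO factors, measured 1.62, 1.62 and 2.15 against 4.28, 3.88 and 3.71 and fell by 2.16 (SE 0.30, adjusted p = 0.014). Errfi1, an inhibitor of the EGF receptor, measured -0.47, -0.28 and 1.14 against 2.70, 2.37 and 2.01 and fell by 2.23 (SE 0.38, adjusted p = 0.026), by 1.22 within slide 2. Crtac1, a cartilage matrix gene, fell by 2.47 (SE 0.45, adjusted p = 0.0353). Fam166a, Gstt4, a glutathione S-transferase, and Tcp11l1 were not well above background on any mutant array and were at least 2.59-fold, 2.24-fold and 3.13-fold lower. Without control replicate 1 none of these 7 genes passed. Depp1 lost its call only there, and Gstt4 also lost it without mutant replicate 2. Acot4 also lost it without mutant replicate 1 or 2 or control replicate 3. Errfi1, Crtac1, Fam166a and Tcp11l1 kept it only without mutant replicate 3.

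Aspa and Pcsk4 were chosen because they passed within slide 2 as well. Aspa, which encodes the aspartoacylase that releases acetate from N-acetylaspartate, measured 0.36, -0.23 and -0.16 against 2.15, 1.91 and 2.11. It fell by 2.07 (SE 0.21, adjusted p = 0.00275), by 2.21 within slide 2 (adjusted p = 0.02), and kept its call without each array in turn. Its mean was 1.35 ± 0.15 in control ZT1 and 2.21 ± 0.08 in mutant ZT13, so mutant ZT1 was the lowest of the 4 adipose groups. Pcsk4, a proprotein convertase gene, measured 1.82, 1.55 and 1.18 against 3.41, 3.29 and 3.91 and fell by 2.02 (SE 0.27, adjusted p = 0.0122). Control ZT13 was the highest of the 4 groups for Pcsk4, whose means were 1.52 in control ZT1 and 1.17 in mutant ZT13. Without control replicate 1 Pcsk4 missed the threshold.

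With 0.838% of all genes called, lists of this size can be without calls by their size alone, and nothing is read from it. None of 22 genes of fatty acid and triglyceride synthesis, 21 of lipolysis and lipid droplets, 20 of fatty acid oxidation, 21 of glucose uptake and glycolysis, 20 of the insulin and IGF axis, 24 of cholesterol synthesis and uptake or 26 of oxidative phosphorylation passed. Their medians lay between -0.17 and 0.16. Within the lipolysis list the beta-adrenergic receptor gene Adrb1 measured -0.91, -0.48 and 0.22 against 1.45, 1.51 and 1.44, a difference of -1.86 (SE 0.39, adjusted p = 0.051). A dimmer Adrb1 probe gave 0.58 (SE 0.49), so the probes disagreed in sign. Cd36, the fatty acid transporter, had a difference of -0.78 (SE 0.24, adjusted p = 0.108), which was -0.31 within slide 2. In the oxidation list, Acot2, a mitochondrial acyl-CoA thioesterase, had -1.0 (SE 0.25, adjusted p = 0.082). Pdk2, a kinase that inhibits pyruvate dehydrogenase, had -0.96 (SE 0.23, adjusted p = 0.0727).

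Among 15 folate and serine genes, 1 passed, beside 0.304% of all genes called lower. Mthfd1l, a mitochondrial formate-producing enzyme, measured -1.61, -1.80 and -1.31 against -0.32, -0.08 and -0.27 and fell by 1.35 (SE 0.20, adjusted p = 0.0158), a call lost without mutant replicate 2 or any 1 control array. Among 14 genes of NAD salvage and sirtuins none passed, and Nampt, the rate-limiting enzyme of that salvage, had a difference of -0.91 (SE 0.22, adjusted p = 0.0717).

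Of 17 glucocorticoid-responsive genes 1 passed, Errfi1, beside 0.304% of all genes called lower. Groups did not overlap for 5 in the lower direction (beside 8.27% of all genes) and for 2 in the higher direction (beside 14.6%). The median of the list was -0.48, and -0.68 within slide 2. Sgk1, a kinase induced by glucocorticoids, measured -1.77, -2.55 and 0.81 against 2.12, 2.24 and 1.88. The mutant array of slide 2 stood apart from the other mutant arrays, and the difference was -3.25 (SE 0.68, adjusted p = 0.0506). Fkbp5, a co-chaperone of the receptor, had -0.97 (SE 0.21, adjusted p = 0.0594). Tsc22d3, which encodes GILZ and was chosen after its values were seen, had -1.36 (SE 0.38, adjusted p = 0.0929). In the other direction 6 of the 17 genes were positive, and Lcn2, described above, had the highest difference of the list at 1.43. In the list of cell cycle genes linked to the clock, 1 of 15 passed, beside 0.304% of all genes called lower. Wee1, a kinase that delays mitosis, measured -1.10, -1.40 and -1.30 against 0.26, 0.24 and 0.81 and fell by 1.71 (SE 0.26, adjusted p = 0.0161), by 1.74 within slide 2, a call lost without mutant replicate 2 or control replicate 1 or 3. Mycl, a MYC family gene of the same list, had the most negative difference of all genes tested, -5.66 (SE 1.25, adjusted p = 0.0596). Its mutant arrays read -2.10, -5.96 and -0.59 against 2.18, 3.20 and 2.95.

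Stromal and vascular lists gave 1 call. Of 22 collagen and matrix genes 1 passed, beside 0.534% of all genes called higher. It was Fbn1, which encodes the microfibril protein fibrillin 1. Fbn1 rose by 1.21 (SE 0.21, adjusted p = 0.0285), a call kept only when mutant replicate 3 was the array left out. Timp1, an inhibitor of metalloproteinases, had a difference of 1.96 (SE 0.42, adjusted p = 0.0527). None of 12 fibroblast and preadipocyte markers passed, 7 had no overlap in the higher direction (beside 14.6% of all genes), and their median was 0.65. Dpp4 and Mfap5, which mark interstitial progenitors, had differences of 1.49 (SE 0.40, adjusted p = 0.0896) and 1.11 (SE 0.24, adjusted p = 0.0522). Dlk1, a marker of preadipocytes, had 1.67 (SE 0.36, adjusted p = 0.056). None of 12 mesothelial markers passed, at a median of 1.0 that was 0.47 within slide 2. The mean level of the mesothelial list was 1.71, 1.74 and 1.11 on the mutant arrays and -0.02, 0.51 and 1.22 on the controls. None of 12 endothelial markers passed, at a median of -0.03, and 6 of the 12 were positive. Groups did not overlap for 2 in the higher direction (beside 14.6% of all genes) and for 2 in the lower direction (beside 8.27%). Cldn5, a tight junction gene, had a difference of 1.30 (SE 0.27, adjusted p = 0.0502), and the endothelial marker Flt1 one of -0.83. None of the brown adipocyte, pericyte, mast cell, erythroid, skeletal muscle, Schwann cell, pancreas, testis or skin epithelium markers passed, and no epididymis marker passed the signal filter. The share of the differences that goes with cell content was not tested.

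**Figure D5:**
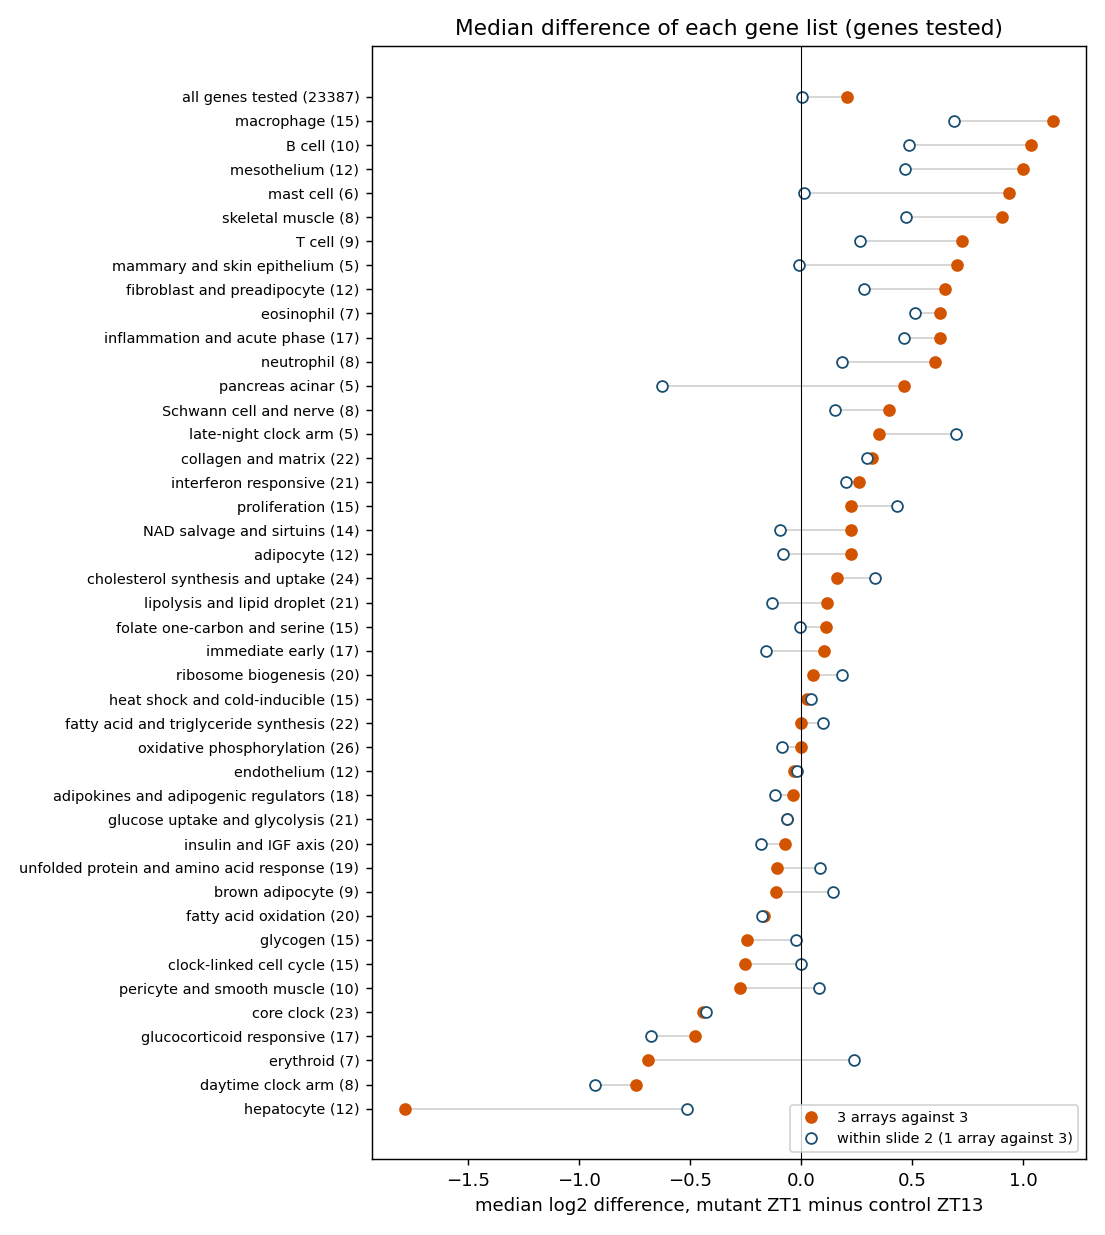
Median log2 difference, mutant ZT1 minus control ZT13 (x axis), of each gene list with at least 4 genes tested, over all 6 arrays (filled) and within slide 2 (open), with all genes in the top line. Over all arrays macrophage markers lie highest at 1.13 and hepatocyte markers lowest at -1.79. Within slide 2 the late-night clock arm lies highest at 0.70 and the daytime clock arm lowest at -0.93.

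The same groups in liver were compared in a fit of all 24 arrays, which tested the difference between tissues. Of 24316 genes, 183 (0.753%) differed between tissues in this contrast. Arntl was among them, with a difference of 2.47 in adipose tissue and 0.53 (SE 0.27) in liver, 1.93 apart (SE 0.39, adjusted p = 0.0243). Per1, Per2, Ciart and Usp2 did not differ between tissues past the threshold, with liver differences of -2.07, -1.27, -2.65 and -2.14. Retnlg rose in liver too, by 2.44 (SE 0.33), 2.80 less than in adipose tissue (adjusted p = 0.0125), a call lost with slide as a block (adjusted p = 0.130). With that block Arntl stayed past the threshold (adjusted p = 0.0191). None of the 6 liver arrays had Mmp9 or Ccr3 well above background, so no liver difference is given. Depp1 went opposite ways, with -2.16 in adipose tissue and 3.40 (SE 0.40) in liver, where mutant arrays read 5.53, 5.07 and 4.73 and controls 1.5, 2.49 and 1.16. For the macrophage gene C1qb the tissues were 1.35 apart (SE 0.32), which did not pass the threshold (adjusted p = 0.0539). With slide as a block they were 0.75 apart.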

How the data were processed

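White adipose and liver RNA of 24 samples was measured on 1-colour Agilent arrays, and 6 adipose arrays carry the comparison. Per the file headers, the authors' scanner files hold processed signal intensity from Agilent Feature Extraction 10.7.3.1 on an array design named with build mm9, already background-corrected and not scaled between arrays. The deposited value table holds log2 values by the authors, which equal log2 of the processed intensity minus a constant per array, with the 75th percentile near 0. Here each array was set to log2 of the intensity minus its 75th percentile, without control spots and outlier spots. Spots of a probe were averaged, probes were named through their accession or symbol in RefSeq tables where matched (RefSeq accession for 26762 probes, current symbol for 3819, synonym for 639, and the file's name for 24461), and the brightest probe stood for a gene. A gene was tested where 1 or more adipose groups had every array well above background. limma 3.58.1 in R 4.3.3 (lmFit, eBayes) was fitted with 4 group means over 12 adipose arrays, so that they share 1 estimate of the spread, and with 8 group means over 24 arrays for the difference between tissues. Adjusted p-values are Benjamini-Hochberg over all genes tested, two-sided, with a threshold of 0.05. Intervals are 95% from the same fit. The small number of arrays limits the precision.

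Named genes were the core clock list, the 10 called genes per direction of largest difference with an ordinary symbol and no overlap, up to 4 genes of lowest p in each list, and 5 genes per direction for the tissue difference, and others are given as chosen after their values were seen. The members and lists were chosen with earlier results of these data known. Motifs were searched in the 250 bases before each start of RefSeq GRCm38.p6, whose coordinates are not those of mm9. Some genes that the rule names are not reported here. The code was tested on simulated data. Alternatives were the scaling, background correction, filter, probe rule, slide, title prefix and replicate number as blocks, other sets of arrays, and leaving out each array.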

Additional observations from a re-analysis of the deposited data

Results flagged for a closer look

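The difference between mutant ZT1 and control ZT13 was not the same in adipose tissue and liver for 183 of 24316 genes, by the test of the difference itself in limma, with 114 more positive and 69 more negative in adipose tissue. The 5 most positive and 5 most negative with ordinary symbols are named below. Of these 10, only Depp1 kept its call with slide as a block (adjusted p = 0.0117), and the other 9 had an adjusted p of 0.216 or more there. Depp1, a target of FOXO factors, gave -5.56, with -2.16 in adipose tissue and 3.40 in liver, and all 12 arrays of the 4 groups had it well above background.

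The more positive genes were read partly from signals not well above background, so their values are fitted ones and not exact sizes. Ccr3, the eotaxin receptor, gave 4.61, with signal well above background on the adipose mutant arrays only. Mmp9, a neutrophil gelatinase, gave 3.48, and none of the 6 liver arrays had it well above background. Aipl1, a photoreceptor chaperone gene, gave 4.60 and was well above background on 1 adipose mutant array and 3 liver control arrays. Olfr131, an odorant receptor gene, gave 3.52, and Pcdh20, a protocadherin gene, gave 3.36, both with 0 of 3 adipose control and 0 of 3 liver mutant arrays well above background.

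Among the more negative genes, Rnu2-10, a U2 small nuclear RNA gene, gave -3.82, and Oas1d, an oligoadenylate synthetase family gene, gave -3.72 with 1 adipose control and 1 liver mutant value missing. Tectb, a tectorin gene, gave -3.70, with 1 of 3 adipose mutant, 1 of 3 liver mutant and 0 of 3 liver control arrays well above background. Cldn1, a tight junction gene, gave -3.32 and was not well above background on any adipose mutant array.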

How the results depend on the processing

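The 196 genes called became 64 with the replicate number as a block (replicate block), 21 with slide as a fixed block, 11 with slide as a random block, 119 with the title prefix as a block, 3 in a fit of the 6 arrays alone, 3853 in a fit of all 24 arrays, 79 in that fit with slide as a block (added after seeing the data) and 449 with normexp background correction. Leaving out 1 array gave 11 to 10392. The cause was not tested. The other 7 alternatives stayed within 1.5 times. One of them, leaving out the mutant arrays of slide 1 (added after seeing the data), gave 277 calls, of which 32 were among the 196. Same-numbered samples deviated together at r of 0.03, 0.35 and 0.18, so the numbers were not taken as pairs. All 56 called genes that were followed kept their sign in each of the 20 or 21 settings that gave them a value, although Per1 was at 0 to 2 decimals when its probes were averaged. Of the 56, 28 kept their call in the replicate block, 8 with slide as a fixed block and 8 without each array in turn.

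Signs turned in 7 named genes, none of them called. With slide as a fixed block over 12 or 24 arrays, or without the mutant arrays of slide 1, Nr1d2 was -0.22, Rorb -0.38, Dbp -0.46, Bhlhe41 -0.20 and Csnk1e -0.17. With slide as a random block they were -0.13 for Nr1d2, -0.050 for Rorb, -0.17 for Dbp and -0.0077 for Csnk1e. Scaling to array medians gave -0.052 for Clock, -0.40 for Nr1d2, -0.15 for Dbp and -0.16 for Csnk1e, and quantile normalization gave -0.11 for Dbp. Averaging probes gave -0.98 for Nr1d2 and 0.10 for Csnk1d, and normexp gave -0.0018 for Nr1d2. Leaving out 1 array gave -0.085 to 0.12 for Nr1d2, -0.19 to 0.85 for Rorb and -0.0038 to 0.45 for Csnk1e.

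The 183 genes that differed between tissues became 19 with slide as a block, and 27 (without liver mutant ZT1 replicate 2) to 7235 (without adipose mutant ZT1 replicate 3) when 1 array was left out. The share more positive in adipose tissue was 62.3%, and 46.6% after quantile normalization. The 10 genes named for it kept their sign in each of up to 16 settings that gave a value, and 1 kept its call with slide as a block. Of the 196 genes, 23 were not well above background on any array of the dimmer group, which leaves only a bound on their fold.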

Other observations

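The following called genes lay outside the naming rule and were chosen after their values were seen. Has2, a hyaluronan synthase gene, measured -1.22, -1.05 and -1.51 in mutant ZT1 and -4.14, -3.44 and -4.38 in control ZT13, without overlap, and rose by 2.73 (SE 0.28, adjusted p = 0.00281 in limma). Its call held without each array in turn. Adamts4, an aggrecan-cleaving protease gene, rose by 1.84 (SE 0.34, adjusted p = 0.0368). Cd48, a leukocyte surface receptor, rose by 1.32.

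Ccn2, a matricellular growth factor gene, measured 1.20, 0.85 and 1.49 against 2.85, 2.97 and 3.15 and fell by 1.81 (SE 0.27, adjusted p = 0.0158). Slc2a3, a glucose transporter gene, fell by 1.60, and Slc27a1, a fatty acid transport protein gene, by 0.92. Rhob, a small GTPase gene, fell by 1.59 and Apold1, an endothelial early response gene, by 1.61, with 1.02 and 1.05 within slide 2. Socs2, a suppressor of cytokine signalling, fell by 1.58 and Esrrg, an orphan nuclear receptor gene, by 1.51. Apart from Has2, none of these genes passed without control replicate 1. Slc27a1, Rhob, Apold1 and Socs2 kept their call only without mutant replicate 3. Adamts4, Cd48, Ccn2 and Esrrg kept it in 2 of the 6 settings that left out 1 array, and Slc2a3 in 4.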
